A study of Mus musculus with 10 samples.

Results

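Gldc, H1fx and Pde3b are 3 genes of the erythroblast gene regulatory network that the study drew from these cells, selected here because an Mtf2 peak of the CD71+Ter119high erythroblasts lay within 5 kb of a transcription start site (TSS) of each. Of the 461 network genes the study lists, 458 matched a protein-coding symbol among 22225 such genes, and 4 of the 458 met this rule. The fourth was Cdkn1a. Chromatin immunoprecipitation sequencing (ChIP-seq) was analysed in e14.5 fetal liver (FL) cells of C57Bl/6 embryos, sorted as CD71+Ter119-/lo pro-erythroblasts and CD71+Ter119high erythroblasts. Mtf2 was immunoprecipitated in wild-type (WT) cells only, and H3K27me3 in WT and in Mtf2-null (Pcl2 -/-) cells, Pcl2 being another name of Mtf2. The Mtf2-null embryos came from gene-targeted embryonic stem cells of the EUCOMM programme, and the -/- genotype is not limited to blood cells. Each sample used 500000 cells. Each of the 6 ChIP conditions has 1 peak list, and the 4 IgG libraries entered only as the controls against which peaks were called. WT H3K27me3 and Mtf2 of the same fraction share their IgG library.

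The members were selected by the position of the erythroblast Mtf2 peak, so that position is described and not tested. The study states that it drew its network from genes with promoter-proximal Mtf2, loss of H3K27me3 at the TSS and raised mRNA in Mtf2-null erythroblasts. Neither the erythroblast H3K27me3 values of these genes nor the Mtf2 shares of network genes are therefore independent evidence. The erythroblast Mtf2 list used here did not show the first criterion for most network genes. By the 5 kb window 4 of 458 had such a peak, 0.873% beside 1.51% of all genes. With 1 list per condition no test between conditions could be made, and the 95% Poisson intervals on tag counts and 95% Wilson intervals on shares cover counting error only. Depth ranged from 15669899 unique tags in the erythroblast Mtf2 library to 67169672 in the Mtf2-null erythroblast library, and a deeper library reaches the peak cutoff at a lower enrichment. The share of tags that were unique was 34.6% for pro-erythroblast and 39.7% for erythroblast Mtf2, and ranged from 78.4% to 85.4% for H3K27me3. Unique is the peak caller's term for tags kept after repeats of the same position are dropped. It does not mean tags that map to a single place, and the Mtf2 libraries thus lost most of their tags as duplicates. None of 12 erythroid genes had a peak of any list within 5 kb of a TSS. Each list alone had a peak in this window for between 1.28% and 11.6% of all genes, so 0 of 12 is near the background of each list. The share of genes with a peak of any list was not computed. Of 7 matched genes of other FL cells, Kdr, an endothelial receptor, had a WT erythroblast H3K27me3 peak there and Afp, a hepatoblast gene, a pro-erythroblast Mtf2 peak.

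Polycomb repressive complex 2 (PRC2) places 3 methyl groups on lysine 27 of histone H3, a mark of silenced promoters that typically spreads over CpG-rich TSS. Mtf2 is a Polycomb-like partner of PRC2 that helps to bring the complex to unmethylated CpG-rich DNA. Gldc encodes glycine decarboxylase, the enzyme of the mitochondrial glycine cleavage system that releases carbon dioxide from glycine and feeds one-carbon metabolism. H1fx encodes H1x, a replication-independent linker histone, a protein that binds DNA where it enters and leaves the nucleosome. Pde3b encodes a membrane-bound phosphodiesterase that hydrolyses cyclic nucleotides and is known for its part in insulin action in fat and liver cells.

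The sequences just upstream of the annotated TSS differed in their CpG content, the property PRC2 promoters are known for. They are printed here in the direction of transcription on NCBIM37, with every CG in capitals. They overlap no annotated UTR. The windows are chr19:30249909-30250158 on the minus strand, chr6:87931477-87931726 on the minus strand and chr7:121558545-121558794 on the plus strand.
Gldc: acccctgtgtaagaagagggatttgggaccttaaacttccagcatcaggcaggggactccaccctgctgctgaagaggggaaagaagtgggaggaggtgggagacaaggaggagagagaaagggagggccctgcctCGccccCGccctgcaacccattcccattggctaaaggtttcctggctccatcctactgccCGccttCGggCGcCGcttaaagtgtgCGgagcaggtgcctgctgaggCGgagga
H1fx: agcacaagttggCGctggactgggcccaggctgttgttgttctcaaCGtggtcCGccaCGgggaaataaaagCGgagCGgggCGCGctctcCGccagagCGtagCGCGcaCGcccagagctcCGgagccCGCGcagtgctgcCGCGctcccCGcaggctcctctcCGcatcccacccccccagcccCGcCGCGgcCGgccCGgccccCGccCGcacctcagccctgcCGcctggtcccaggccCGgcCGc
Pde3b: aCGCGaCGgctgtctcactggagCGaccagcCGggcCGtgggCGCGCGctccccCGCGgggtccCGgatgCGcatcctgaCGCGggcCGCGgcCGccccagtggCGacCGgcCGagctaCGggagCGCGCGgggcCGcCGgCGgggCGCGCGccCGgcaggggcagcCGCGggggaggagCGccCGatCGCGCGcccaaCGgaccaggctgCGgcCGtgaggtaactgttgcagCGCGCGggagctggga

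In these 250 bp, Gldc held 8 CG, H1fx 30 and Pde3b 45. Over the same window of all 22225 genes the median was 8 CG, with quartiles of 3 and 18. Fewer CG than in Pde3b were found in 99.5% of genes, fewer than in H1fx in 93.4% and fewer than in Gldc in 47.4%. In the 1 kb centred on the TSS the observed over expected CpG ratio was 0.575 at Gldc, 0.892 at H1fx and 1.00 at Pde3b, and GC content was 62.6%, 71.7% and 74.4%. Pde3b thus had the most CpG-rich TSS of the 3, and it was the gene without an H3K27me3 peak on its TSS at either stage, as given below. AGATAA, a form of the site bound by GATA factors, read on both strands, was in none of the 3 windows and in 9.29% of all promoters of this length.

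Within 50 kb of the 3 genes there were 6 Mtf2 peaks in pro-erythroblasts, 5 Mtf2 peaks in erythroblasts, 7 WT H3K27me3 peaks in pro-erythroblasts and 2 in erythroblasts, and none in either Mtf2-null list. Over all protein-coding genes, 58.8% had a pro-erythroblast Mtf2 peak within 50 kb, 19% an erythroblast Mtf2 peak, 22.9% a WT pro-erythroblast H3K27me3 peak and 31.4% a WT erythroblast H3K27me3 peak. Mtf2-null H3K27me3 peaks lay within 50 kb of 10.2% of genes in pro-erythroblasts and 19.5% in erythroblasts, so their absence here is the common case.

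**Figure D1:**
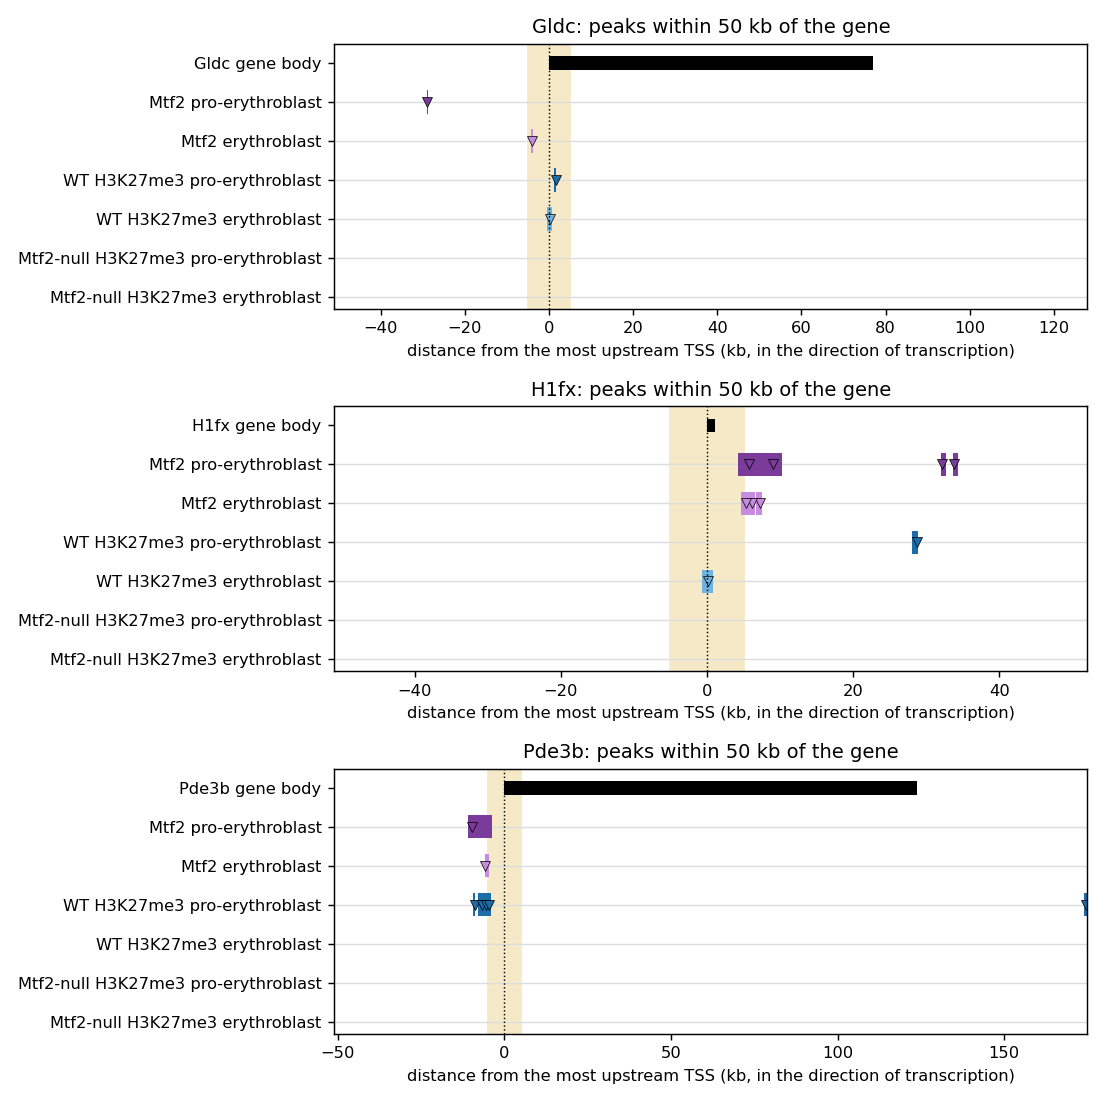
Peaks of the 6 lists within 50 kb of Gldc, H1fx and Pde3b. Each panel has 1 row per list, bars for peaks, triangles for summits, a black bar for the gene body and a shaded band for the 5 kb on either side of the most upstream TSS, against distance from that TSS in kb in the direction of transcription. Erythroblast H3K27me3 sat on the TSS of Gldc and H1fx, while Mtf2 lay upstream of Gldc and Pde3b and past the end of H1fx, and the Mtf2-null rows are empty.

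Gldc (chromosome 19, 30172939 to 30249908 on NCBIM37, minus strand) had Mtf2 and H3K27me3 in erythroblasts at separate places. The erythroblast Mtf2 peak, at 30253590 to 30254060, was intergenic, with its summit 3.99 kb upstream of the TSS and its near edge 3.68 kb from it. It held 19 tags (95% Poisson interval 11.4 to 29.7), a fold enrichment over IgG of 21.2, a score of 100.63 (−10 log10 of the caller's p) and a false discovery rate (FDR) of 8.19%. It ranked 354 by score and 159 by fold enrichment among 5309 peaks, while 2.35% of the list was shorter than its 471 bp. A short peak with few tags and a high ratio to its control thus chose this gene.

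The erythroblast H3K27me3 peak of Gldc, 1268 bp long with 48 tags (35.4 to 63.6), covered both annotated TSS, and its summit lay 46 bp inside the nearer one, in an exon. Its fold enrichment was 11.2, its FDR 3.32% and its rank by score 994 of 4490. The Mtf2 and H3K27me3 summits of erythroblasts were 4.21 kb apart and the peaks did not touch, with 3.22 kb between their edges. In pro-erythroblasts the H3K27me3 peak was smaller, 656 bp with 16 tags (9.15 to 26.0), the lowest count in that list, and had its summit 1.55 kb downstream of the nearer TSS, in an intron. It ended 0.963 kb short of that TSS and did not overlap the erythroblast peak. The pro-erythroblast list held no Mtf2 peak where the erythroblast peak lay. Its nearest one, with 21 tags (13 to 32.1), had its summit 28.9 kb upstream of the TSS and 30.6 kb from the H3K27me3 summit of that stage.

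The erythroblast Mtf2 summit window of Gldc is printed because 154 of its bases lie in sequence found many times in the genome. It is chr19:30253745-30254044, 300 bp around the summit on the strand of the gene, and capitals mark the bases covered by 25-mers found at 100 or more places on chromosomes 1 to 19, X and Y.
Gldc Mtf2 window: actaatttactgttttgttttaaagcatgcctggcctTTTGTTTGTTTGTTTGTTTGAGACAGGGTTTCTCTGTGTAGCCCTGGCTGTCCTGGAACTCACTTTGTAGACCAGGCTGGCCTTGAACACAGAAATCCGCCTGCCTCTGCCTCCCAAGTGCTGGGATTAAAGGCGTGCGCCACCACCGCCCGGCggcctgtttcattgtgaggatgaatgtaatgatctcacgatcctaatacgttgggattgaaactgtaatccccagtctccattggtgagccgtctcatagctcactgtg

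The capitals form a single run that includes the summit. The most frequent 25-mer in the window occurred 53550 times. Of all 25-mers in the window, 51.1% occurred at 2 or more places, and over the whole peak 31.5% did.

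H1fx (chromosome 6, 87930416 to 87931476, minus strand) is a single-exon gene of 1.06 kb, and its Mtf2 peaks lay past its 3′ end rather than at its promoter. In erythroblasts 3 Mtf2 peaks stood side by side, with 21 (13 to 32.1), 23 (14.6 to 34.5) and 27 (17.8 to 39.3) tags. Their summits were 7.23, 6.15 and 5.33 kb downstream of the TSS, and 6.17, 5.09 and 4.27 kb beyond the end of the gene. The third alone came within 5 kb of the TSS, by its edge at 4.72 kb, and its score of 50.76 ranked 5044 of 5309. The other 2 had scores of 55.16 and 52.78. Fold enrichments were 12.1, 5.85 and 7.65 and FDR 9.33%, 9.91% and 9.86%. All 3 were therefore among the weaker peaks of the list by score.

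On the other strand the same peaks lie upstream of Gm5577, a protein-coding gene whose first TSS is inside H1fx. The third erythroblast peak ended 4.12 kb from that TSS, closer than to the TSS of H1fx, and Gm5577 is not on the network list. The erythroblast H3K27me3 peak of H1fx held 64 tags (49.3 to 81.7) over 1434 bp, had a fold enrichment of 9.54 and an FDR of 4.24%, and covered the TSS of both genes. Its summit was 80 bp inside H1fx. The nearest erythroblast Mtf2 summit was 5.25 kb away, with 3.94 kb between the edges of the 2 peaks.

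In pro-erythroblasts 2 Mtf2 peaks, with 213 (185 to 244) and 66 (51 to 84.0) tags, filled the same stretch past the end of H1fx. The larger one, 4.28 kb long with a score of 458.38 and rank 1317 of 28918, contained all 3 erythroblast peaks whole. A further pair lay 32.2 and 33.8 kb downstream of the TSS, with 21 and 22 tags. One of these covered the start of Rps19-ps9, a pseudogene of a ribosomal protein gene. No pro-erythroblast H3K27me3 peak was called on the H1fx TSS. The only one within 50 kb, with 23 tags (14.6 to 34.5), had its summit 28.7 kb downstream, 3.45 kb from an Mtf2 summit and touching none. H3K27me3 over the H1fx TSS was thus listed in erythroblasts alone, in the WT library with 30054186 unique tags against 18945784 in pro-erythroblasts.

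Pde3b (chromosome 7, 121558795 to 121682765, plus strand) was the gene with the largest Mtf2 peak and with no H3K27me3 on its TSS. Its erythroblast Mtf2 peak held 41 tags (29.4 to 55.6) over 1464 bp, with a fold enrichment of 9.11, an FDR of 7.4% and a score of 91.23, rank 526 of 5309. The summit lay 5.70 kb upstream of the TSS, and the near edge, at 4.42 kb, brought the gene into the rule. In pro-erythroblasts a single Mtf2 peak of 7.34 kb held 387 tags (349 to 428). Its score of 1188.04 ranked 46 of 28918, and 98.9% of that list was shorter. It contained the erythroblast peak whole, but its summit was 3.90 kb from the erythroblast summit and 9.60 kb upstream of the TSS.

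Of the 7 pro-erythroblast H3K27me3 peaks, 5 belonged to Pde3b. The 4 upstream ones, with 17 (9.90 to 27.2), 46 (33.7 to 61.4), 22 (13.8 to 33.3) and 32 (21.9 to 45.2) tags, lay entirely inside the Mtf2 peak of that stage and covered 56.4% of it. The nearest H3K27me3 summit was 0.763 kb from the Mtf2 summit, and by peak centres another of the 4 was nearest, at 0.338 kb. Here alone among the 3 genes did peaks of Mtf2 and H3K27me3 from the same stage overlap. The fifth, with 24 tags (15.4 to 35.7), lay 49.9 kb past the 3′ end of the gene. In erythroblasts the nearest WT H3K27me3 peak was 297 kb from a Pde3b TSS, although Pde3b is on the network list. Of the 458 network genes 349 had an erythroblast H3K27me3 peak within 5 kb, and Pde3b was among the 109 without one. The upstream peaks lie in an intron of 4933406I18Rik, a long noncoding RNA gene on the minus strand that starts beside Pde3b, with the erythroblast Mtf2 peak 4.30 kb from its first TSS.

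Both Mtf2 regions of H1fx and Pde3b were long stretches of sequence present many times in the genome. Stretches were joined from 25-mers with 100 or more copies and gaps of at most 200 bp. At Pde3b such a stretch was 7.43 kb long with a median of 1036 copies, and the ends of the pro-erythroblast Mtf2 peak were 35 and 58 bp from the ends of the stretch. At H1fx the stretch was 6.57 kb long with a median of 661 copies. The 2 neighbouring pro-erythroblast Mtf2 peaks spanned 6.07 kb of it and ended 159 and 335 bp inside it. These pro-erythroblast Mtf2 peaks covered 98.7% of the stretch at Pde3b and 91.7% at H1fx, and no base of them lay outside. The erythroblast Mtf2 peaks lay inside the same stretches and covered less, 1464 bp at Pde3b and 2727 bp at H1fx.

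**Figure D2:**
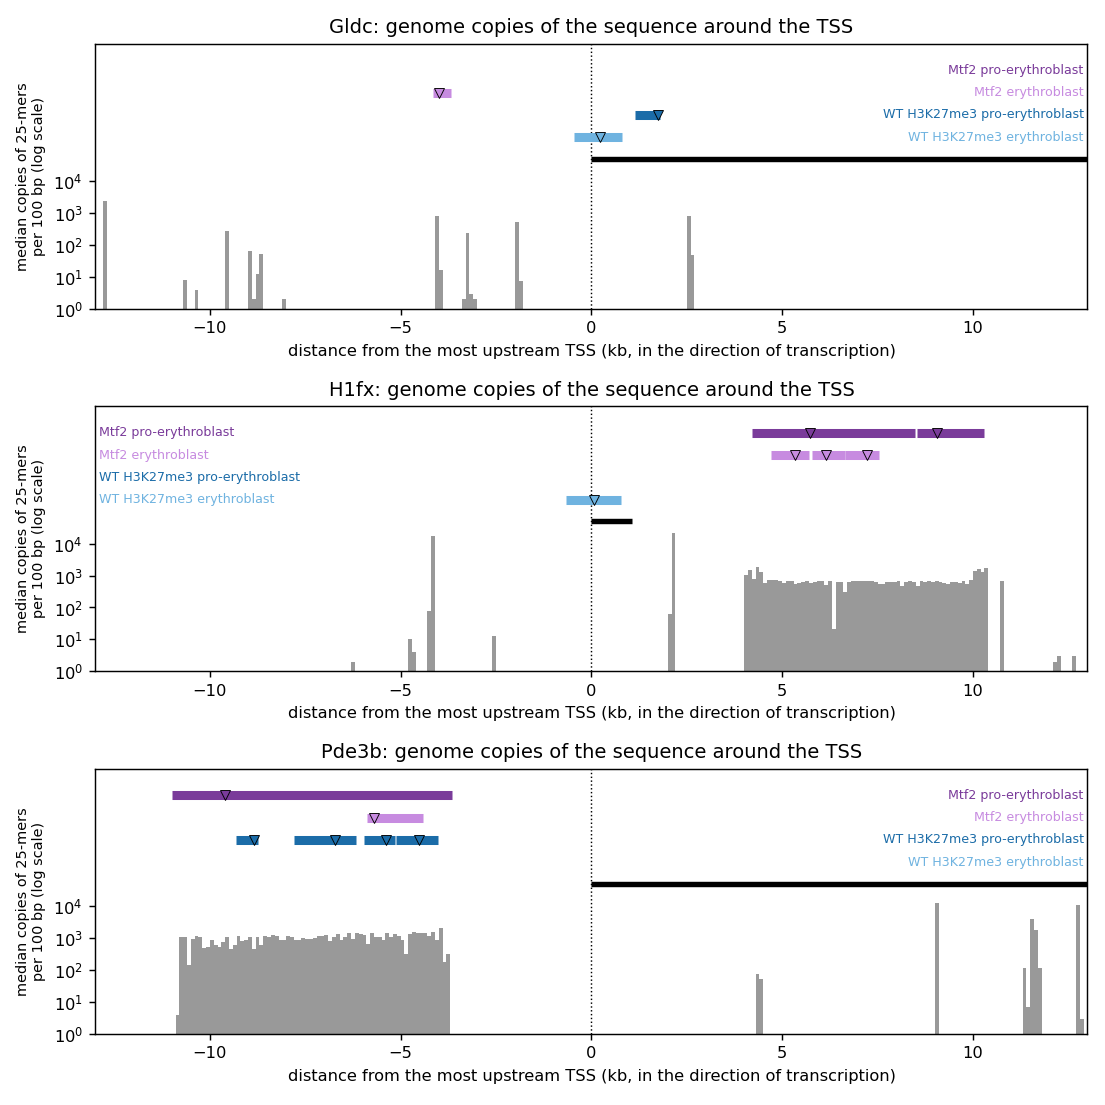
Genome copies of the sequence within 13 kb of the most upstream TSS of Gldc, H1fx and Pde3b. Grey bars give the median number of places at which the 25-mers of each 100 bp occur, on a log scale, against distance from the TSS in kb in the direction of transcription; coloured bars with triangles are WT peaks and their summits, and the black bar is the gene. The pro-erythroblast Mtf2 peaks of H1fx and Pde3b fill blocks with medians of 661 and 1036 copies, and the shorter erythroblast Mtf2 peaks lie inside these blocks. The erythroblast H3K27me3 peaks of Gldc and H1fx sit on sequence found once.

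In the 300 bp around each summit, every 25-mer occurred at 2 or more places for the 3 erythroblast Mtf2 peaks of H1fx and for that of Pde3b, with median copies of 674, 642, 601 and 1173. The same was true of the pro-erythroblast Mtf2 summits in these stretches, with medians of 662 and 660 at H1fx and 796 at Pde3b. The 4 pro-erythroblast H3K27me3 peaks upstream of Pde3b had between 90.9% and 100% of 25-mers at 2 or more places. By contrast the erythroblast H3K27me3 peaks on the TSS had 1.45% at Gldc and 0% at H1fx, and the pro-erythroblast H3K27me3 peak of Gldc had 12.7%. The other 2 pro-erythroblast H3K27me3 peaks had 76.1% at H1fx and 79.0% past the end of Pde3b. Of the pro-erythroblast Mtf2 peaks away from these stretches, that of Gldc had 60.5% and those of H1fx 62.0% and 72.1%. The 300 bp around the TSS had 0% at all 3 genes. Over the whole loci, the gene and 50 kb on either side, repeated 25-mers made up 10.9% at Gldc, 23.6% at H1fx and 23.3% at Pde3b.

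The lists as a whole divided in the same way. More than 50% of 25-mers were repeated in 97.4% of erythroblast Mtf2 summit windows and 98.2% of pro-erythroblast ones, so the 5 of 5 erythroblast Mtf2 windows of these genes match the background of their list. The share was 81.9% for WT pro-erythroblast H3K27me3, 12% for WT erythroblast H3K27me3, 30.6% and 89.6% for Mtf2-null H3K27me3 in pro-erythroblasts and erythroblasts, and 8.96% for windows at the most upstream TSS of every gene. Gldc, with 51.1%, was near the lower end of the erythroblast Mtf2 list, where 2.81% of windows had less. How tags that match several places were assigned is not given in the sources used here, and the part of repeated sequence in the Mtf2 peaks of the 3 genes was not tested. The methods of the study give no read length, and a longer read may match fewer places than a 25-mer.

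**Figure D3:**
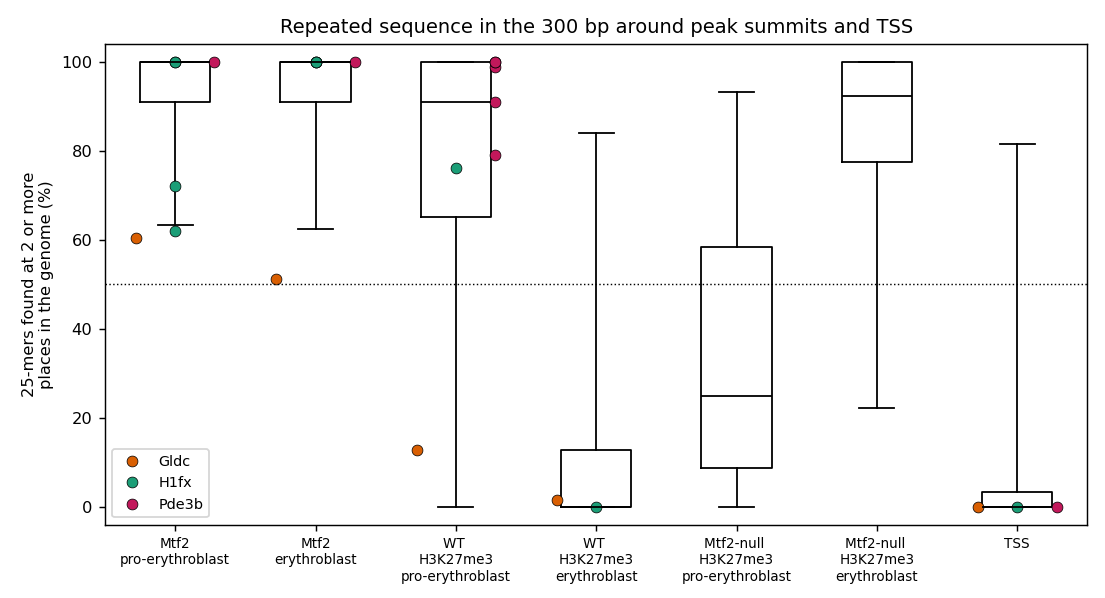
Share of the 25-mers in the 300 bp around summits, and around the most upstream TSS of all genes, that occur at 2 or more places in the genome, in percent. Boxes give the quartiles and median of each list, whiskers its 5th and 95th percentiles, and points the windows of the 3 genes. Mtf2 windows of H1fx and Pde3b within the long stretches are at 100%, the erythroblast Mtf2 window of Gldc is at 51.1%, and all 3 TSS are at 0%.

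Per kb of peak and per 1000000 unique tags, 11 of the 20 peaks within 50 kb of the 3 genes lay outside the quartiles of their lists, 6 above and 5 below. Quartiles leave as many peaks of a list outside as inside, so 11 of 20 is near the share of the whole lists. The counting intervals of 18 included the list median. Of the 6 pro-erythroblast Mtf2 peaks 5 lay outside, 3 above and 2 below, with those of Gldc at 2.04 and Pde3b above the upper quartile. The Gldc peak held 21 tags, the lowest count in that list, over 355 bp, and 0.118% of the list was shorter. No listed peak of that length could have a lower density, so its place above the quartile follows from its length. For Pde3b the Mtf2 density was 1.82 (1.64 to 2.01) in pro-erythroblasts and 1.79 (1.28 to 2.42) in erythroblasts. For H1fx it was 1.72 (1.49 to 1.96) in the larger pro-erythroblast peak and 1.5, 1.73 and 1.75 in the erythroblast peaks. These intervals overlap between stages at both genes, and the difference in tag number, 387 against 41 at Pde3b, came with peaks of different length and libraries of 29009650 and 15669899 unique tags. Density counts only the bases inside each called peak, and peak length is set by the caller from the tags. The overlap therefore does not show equal binding at the 2 stages. The list medians were 1.42 in pro-erythroblasts and 1.70 in erythroblasts. Gldc was denser, at 2.57 (1.55 to 4.02), above 94.8% of erythroblast Mtf2 peaks, with an interval that reaches below the list median. Its peak was short, 471 bp with 2.35% of the list shorter, and no peak of that list held fewer than 15 tags. A short listed peak has a high density for that reason, so this value is not a measure of binding strength. H3K27me3 density in erythroblasts was 1.26 (0.929 to 1.67) at Gldc and 1.49 (1.14 to 1.90) at H1fx, beside a list median of 1.19.

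**Figure D4:**
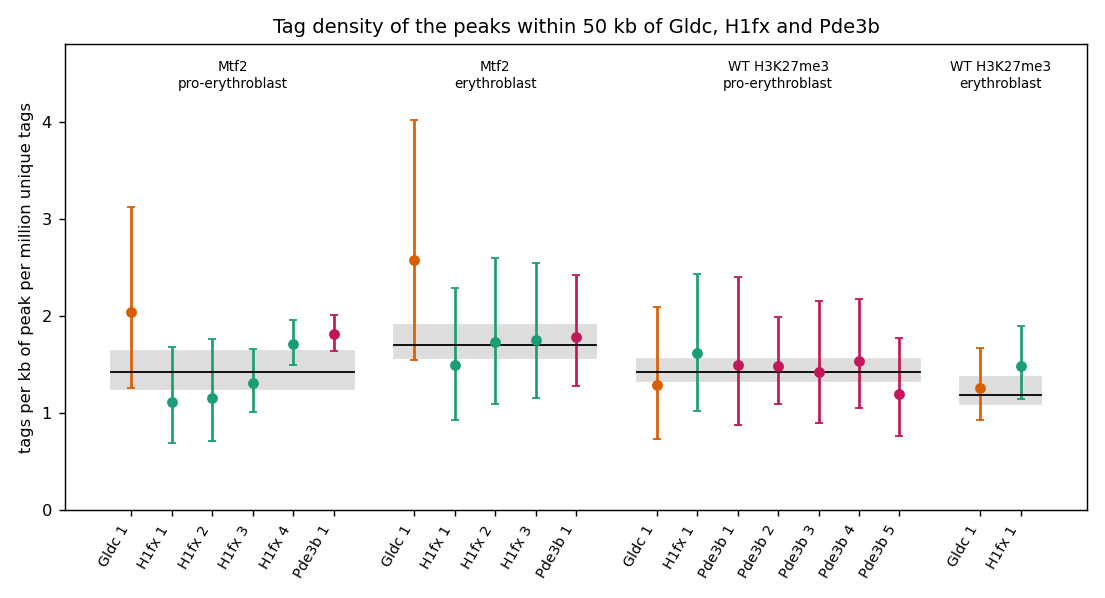
Tags per kb of peak and per 1000000 unique tags for each WT peak within 50 kb of the 3 genes. Points are peaks, numbered in order of coordinate, with 95% Poisson intervals; the line and grey band give the median and quartiles of each whole list. Intervals of Pde3b and H1fx overlap between stages, and the Gldc erythroblast Mtf2 peak, a short one of 471 bp, is the highest, at 2.57.

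In erythroblasts the Mtf2 summits of Gldc and H1fx were lower in CpG content than their H3K27me3 summits. In the 1 kb around the erythroblast Mtf2 summits, the observed over expected CpG ratio was 0.260 at Gldc, 0.155, 0.216 and 0.257 at H1fx and 0.393 at Pde3b, against a list median of 0.220. In the 300 bp around the summit the ratio was 0.493 at Gldc, 0.164, 0.130 and 0.410 at H1fx and 0.462 at Pde3b. Around the erythroblast H3K27me3 summits it was 0.641 at Gldc and 0.924 at H1fx, against a list median of 0.578, and 91.8% of that list was below H1fx. GC content at the erythroblast Mtf2 summits was between 44.0% and 49.1%, and at the H3K27me3 summits 63.7% and 73.4%. The pro-erythroblast H3K27me3 summit of Gldc was not CpG-rich, with a ratio of 0.235 and a GC content of 43.4%. AGATAA was in none of the 11 Mtf2 summit windows of 300 bp, beside 20.4% of all erythroblast and 13.7% of all pro-erythroblast Mtf2 windows. It was in 2 of the 7 pro-erythroblast H3K27me3 windows, both upstream of Pde3b, beside 17.4% of that list, and in neither erythroblast H3K27me3 window, beside 6.06%.

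Within 5 kb of a TSS, an erythroblast Mtf2 peak was found for 336 of 22225 genes, or 1.51%, and for 0.873% of network genes. A pro-erythroblast Mtf2 peak was found for 8.46% of genes, a WT H3K27me3 peak for 3.3% in pro-erythroblasts and 11.6% in erythroblasts, and a Mtf2-null H3K27me3 peak for 1.28% and 1.64%. H1fx and Pde3b had pro-erythroblast Mtf2 within 5 kb, Gldc and Pde3b had WT pro-erythroblast H3K27me3, and Gldc and H1fx had WT erythroblast H3K27me3. No gene of the 3 had the same set of lists as another.

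Among the other 333 genes with erythroblast Mtf2 in this window, 26 also had WT erythroblast H3K27me3 (7.81%, Wilson interval 5.38 to 11.2), 41 had WT pro-erythroblast H3K27me3 (12.3%, 9.21 to 16.3) and 180 had pro-erythroblast Mtf2 (54.1%, 48.7 to 59.3). The nearest summit window was mostly repeated sequence in 303 of them (91.0%, 87.4 to 93.6). Of the 2567 genes with erythroblast H3K27me3, 28 had erythroblast Mtf2 (1.09%, 0.756 to 1.57), Gldc and H1fx among them. The median gap between peak edge and TSS in the other genes was 2.81 kb, and the gaps of 3.68, 4.72 and 4.42 kb at Gldc, H1fx and Pde3b were all longer. In 33 of the 333 the summit itself lay more than 5 kb away, as it did for H1fx and Pde3b.

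The window decided the membership. By gap from TSS to peak edge, the network genes just inside it were Cdkn1a at 3.63 kb, Gldc, Pde3b and H1fx, and those just outside were Dock3 at 5.19 kb, Asap2 at 5.42 kb and Tulp4 at 5.97 kb. Cdkn1a, which encodes the cyclin-dependent kinase inhibitor p21, had a peak of 268 tags. No network gene had an erythroblast Mtf2 peak within 2 kb, where 0.499% of all genes had one, so a count of 0 is near the background. The median gap over network genes was 297 kb. The list is sparse over all genes too, with a peak within 200 kb for 47.4% of all genes and 36.5% of network genes. With the summit in place of the edge, Gldc alone was within 5 kb. With a score of at least 100, Gldc and Cdkn1a met the rule. No erythroblast Mtf2 peak had an FDR of 5% or less, since the lowest in that list was 6.94%.

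**Figure D5:**
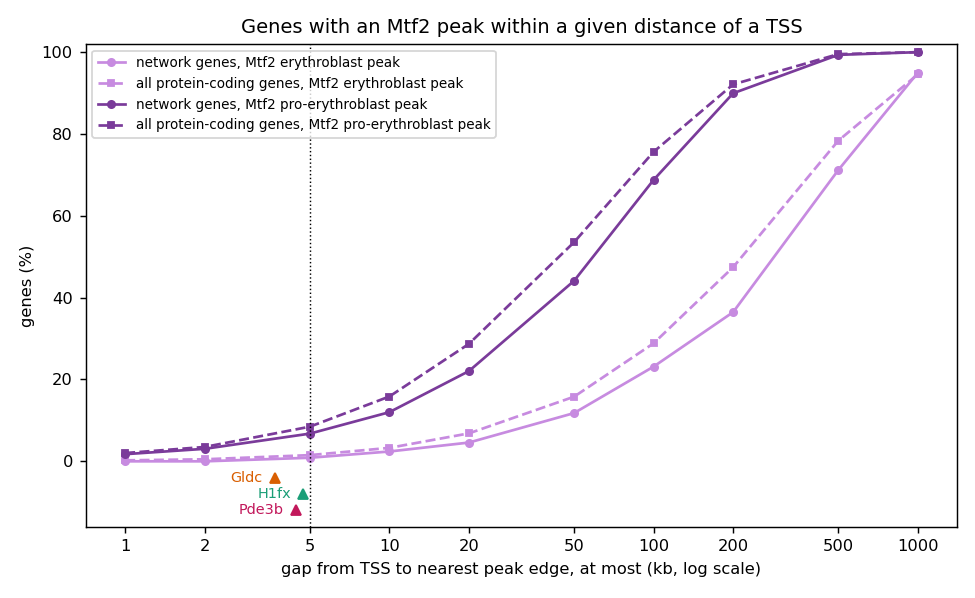
Share of network genes (solid) and of all protein-coding genes (dashed), in percent, whose nearest Mtf2 peak edge lies within a given distance of a TSS, in kb on a log scale, for both stages. Arrowheads mark Gldc, Pde3b and H1fx at 3.68, 4.42 and 4.72 kb, just inside the dotted line at 5 kb, where the curves are at 0.873% of network genes and 1.51% of all genes in erythroblasts.

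Neither Mtf2-null list had a peak near these genes. The nearest was 1094 kb from a Gldc TSS in pro-erythroblasts and 831 kb in erythroblasts, 199 and 323 kb from that of H1fx, and 1149 and 152 kb from those of Pde3b. The Mtf2-null libraries were the deeper ones, with 37026535 and 67169672 unique tags, and their lists started at 24 and 35 tags per peak. Every peak of the Mtf2-null pro-erythroblast list had an FDR of 100%, and its IgG library was deeper still, with 39667267 unique tags. In the Mtf2-null erythroblast list the FDR was at most 1.16%. WT and Mtf2-null values of these genes come from 1 list each, and the difference has no replicate check.

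The relatives of each gene were read in the same way. Of 11 genes of the glycine cleavage system and serine and glycine one-carbon enzymes, 3 had WT erythroblast H3K27me3 within 5 kb of a TSS, beside 11.6% of all genes. These were Gldc, Dld, which encodes the dihydrolipoamide dehydrogenase of the same system, and Shmt2, the mitochondrial serine hydroxymethyltransferase. The peaks of Dld and Shmt2 held 23 tags each, 1.87 and 3.93 kb from the TSS, against 48 tags on the TSS of Gldc. In pro-erythroblasts 2 had H3K27me3, beside 3.3% of all genes, Gldc with 16 tags and Shmt2 with 27. Gldc was the only one of the 11 with erythroblast Mtf2, by which it was chosen, beside 1.51% of all genes. Shmt1, the cytosolic enzyme, was the only one with pro-erythroblast Mtf2, beside 8.46% of all genes. Its peak held 83 tags on fully repeated sequence.

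Of 11 linker histone genes 10 were matched, and H1f0, for which no symbol matched, was not read. Among the 10, H1fx alone had an H3K27me3 peak within 5 kb in any list, in WT erythroblasts, where 11.6% of all genes had one. Erythroblast Mtf2, by which H1fx was chosen, was also found for H1fnt, a testis-specific linker histone, with 22 tags and a gap of 3.54 kb. Over all genes 1.51% had it. Of 24 cyclic nucleotide phosphodiesterase genes 7 had WT erythroblast H3K27me3, beside the same 11.6%, namely Pde2a, Pde4a, Pde4c, Pde6h, Pde8a, Pde9a and Pde10a, and Pde3b was not among them. The highest of these was Pde8a, a cAMP-specific enzyme, with 112 tags on its TSS, and 1.09% repeated 25-mers at the summit. Pde3b was the only one of the 24 with erythroblast Mtf2, by which it was chosen, beside 1.51% of all genes. It was also the only one with WT pro-erythroblast H3K27me3, beside 3.3% of all genes. The nearest such peak lay 4.02 kb from the TSS, with 90.9% repeated 25-mers at the summit. Pde1a, a calmodulin-dependent enzyme, shared pro-erythroblast Mtf2 with Pde3b, with 36 tags, beside 8.46% of all genes. Pde4c alone had a Mtf2-null peak within 5 kb, in pro-erythroblasts, with 31 tags, beside 1.28% of all genes. Its FDR was 100%, as for every peak of that list, and 72.5% of 25-mers at its summit were repeated.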

How the data were processed

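ChIP DNA was sequenced by the authors and aligned with Bowtie2 2.2.3 to mm9, and peaks were called with MACS 1.3.7 at a p cutoff of 1.00e-05. The file headers name the alignments with the tags very-sensitive, masked and encBL. What these tags stand for, and so what was masked, is not spelled out in the sources used here. The methods state duplicate experiments, and whether these were pooled is not given in the sources used here. One line of the series text names H3K4me3, while every label says H3K27me3. The deposited tag counts are reads per peak, not normalized. The deposited score is −10 log10 of p, the deposited fold enrichment is the ratio to local IgG, and the deposited FDR is a percent.

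Genes and TSS came from GENCODE M1 on NCBIM37, the assembly of mm9. A gene had a peak where 1 base or more overlapped the 5 kb around a TSS, and loci were the gene and 50 kb on either side. Composition was read in 1 kb around summits. Copies of every 25-mer, the tag size in the headers, were counted on both strands, a measure added after seeing the data. That tag size may differ from the length of the sequenced reads, so the copies describe 25-mers and not the reads. The counting and window steps were tested on simulated intervals and by brute force. Named genes were the 3 members, the other network gene inside 5 kb and the 3 nearest outside, genes touched by peaks within 50 kb, and listed relatives with a peak. The members and lists were chosen with earlier results of these data known. No test was made. Alternatives were other windows, score and FDR limits, TSS sets, peak centres, composition windows, 32-mers and 10 copies. The steps ran in Python 3.11.15 with numba 0.67.0, pysam 0.24.0, matplotlib 3.10.9, numpy 2.4.6, scipy 1.17.1 and pandas 2.3.3.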

Additional observations from a re-analysis of the deposited data

How the results depend on the processing

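With 1 list per condition and low tag counts, each position and level rests on a single library, and a peak that was not listed may have been below the cutoff. Within 25 kb there were 3 pro-erythroblast Mtf2 peaks in place of 6. At a score of at least 100, 1 erythroblast Mtf2 peak and 0 WT pro-erythroblast H3K27me3 peaks were left within 50 kb, and at an FDR of at most 5% there were 0 of either. The erythroblast H3K27me3 peaks numbered 2 under 3 of the 4 alternatives and 3 within 100 kb. No Mtf2-null peak was found within 100 kb either. The other alternatives only narrow the selection, so they could not have added a Mtf2-null peak. Network genes with erythroblast Mtf2 numbered 0 within 1 kb, 0 within 2 kb and 11 within 10 kb, 1 by summit, 2 at a score of at least 100 and 0 at an FDR of at most 5%. The share over all genes was 0.243%, 0.499%, 3.29%, 1.35%, 0.0720% and 0% under the same settings, and 1.27% with TSS of protein-coding transcripts only, where the network count was 4. By peak centre, the erythroblast H3K27me3 peak of Gldc lay at -8 bp, upstream of a TSS, in place of 46 bp inside. Of the 20 distances to a TSS, 16 moved by under 300 bp with the centre and 19 with each other set of TSS. Of the 10 distances between Mtf2 and H3K27me3, 6 moved by 300 bp or more with the centre. CpG ratios at 5 of the 11 Mtf2 summits moved over 1.5 times in 300 bp, and 1 over the whole peak. In alternatives chosen after seeing the data, mostly repeated erythroblast Mtf2 windows made up 95.5% with 32-mers and 93.8% at 10 or more copies. Of the 5 windows of these genes 4 stayed mostly repeated under either, Gldc falling to 47.6% and 48.2%. No paired analysis was possible because the labels carry no replicate numbers and no test was made.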

Other observations

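The division between repeated and single-copy sequence was also read for all peaks within 1 kb of a TSS. Of 57 such erythroblast Mtf2 peaks, 47 had mostly repeated 25-mers around the summit (82.5%, Wilson interval 70.6 to 90.2), against 28 of 2241 WT erythroblast H3K27me3 peaks (1.25%, 0.866 to 1.80). In pro-erythroblasts the values were 416 of 459 for Mtf2 (90.6%, 87.6 to 93.0) and 41 of 301 for WT H3K27me3 (13.6%, 10.2 to 18.0). Away from TSS, WT H3K27me3 summits were mostly repeated in 86.2% of pro-erythroblast peaks and 22.8% of erythroblast peaks. In all, 140 of the 5309 erythroblast Mtf2 peaks and 519 of the 28918 pro-erythroblast ones had mostly single-copy sequence at the summit.

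Cdkn1a, the network gene inside the window that is not described above in detail, had the erythroblast Mtf2 peak with the most tags of the 4, 268, with a fold enrichment of 10.7 and its summit 7.25 kb downstream of a TSS. Its summit window had 85.9% repeated 25-mers. It had WT H3K27me3 within 5 kb in pro-erythroblasts and none in erythroblasts.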
